A study of Homo sapiens with 3 samples.

Results

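Broad regions of H3K27ac were examined in LNCaP cells. Members were chosen by their H3K27ac width alone: a region was counted as broad when it measured 10 kb or more from start to end in the deposited H3K27ac list and lay on chromosomes 1 to 22. This held for 436 of the 69160 H3K27ac regions on these chromosomes, or 0.630%, and of 71078 in the whole list. The other 9 regions of this width, 6 on X, 2 on Y and 1 mitochondrial, were left out by the rule. Widths are therefore given as a description, and the measurements of interest are those of the second mark, H3K4me1, within and around them.

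H3K27ac is acetylation of lysine 27 of histone H3, deposited mainly by the acetyltransferases p300 and CBP at active enhancers and promoters. H3K4me1 is monomethylation of lysine 4 of the same histone, written at enhancers largely by the KMT2C and KMT2D methyltransferases and present whether an enhancer is active or only primed. At active promoters lysine 4 tends to be trimethylated, so that H3K4me1 is then found to the sides of the start site. Long, dense stretches of H3K27ac are known from enhancer clusters near genes that define a cell type and from the bodies of highly transcribed genes.

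LNCaP is an established line from a lymph node metastasis of a prostate carcinoma, and it responds to androgen through its receptor. The groups were ChIP with an H3K27ac antibody, ChIP with an H3K4me1 antibody, and input without antibody, each from LNCaP cells for which the labels name no treatment and each 1 library. The input was not analysed here, and neither were the normal prostate epithelial cells and PC3 cells named in the design. The label of the cells was not checked against marker genes, since gene positions of the build used, hg19, were not at hand. For the same reason regions are named by their hg19 coordinates, counted from 1, and carry no gene names or sequence. The LNCaP genome is rearranged, and no correction for copy number was made.

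Both lists hold intervals called by the authors, with all starts and ends on a grid of 50 bp and no read counts, so the depth behind a region is unknown. With 1 library per mark there is no spread between replicates and no test. Intervals given below are 95% intervals over regions, exact binomial for shares of regions and by order statistics for medians. They cover counting error only and are too narrow, since neighbouring regions are not independent.

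The broad regions had a median width of 13.1 kb (interval 12.7 to 13.5 kb, quartiles 10.9 and 17.2 kb). Together they covered 7.07 Mb, which was 5.05% of the H3K27ac length on these chromosomes. Only 70 reached 20 kb, 27 reached 30 kb and 6 reached 50 kb. The distribution therefore had a long tail: the 27 regions of 30 kb or more held 18.0% of the broad length. At the threshold, 11 members were exactly 10000 bp wide, with H3K4me1 over 60.0% to 100% of their length and over more than 90% of it in 8. The 5 widest regions left out measured 9950 bp (4 regions) and 9900 bp, and had H3K4me1 over 26.6%, 69.8%, 90.5%, 86.4% and 95.5%. In the 113 members under 11 kb H3K4me1 covered a median of 92.2%, with 62 over 90%, and in the 142 regions from 9 kb up to the threshold a median of 86.4%, with 61 over 90%. The authors' score, whose meaning no source states and which is lowest in the widest regions, was 0.001 in 404 of the 436 members, 0.002 in 19, 0.007 in 6 and 0.009 in 7. The lowest score was carried by 14.5% of all autosomal H3K27ac regions and 77.9% of those of 4 to 10 kb, so it went with width and is read no further.

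H3K4me1 covered most of a typical broad region, but the members differed widely from each other. The H3K4me1 share, the percentage of a region's length inside H3K4me1 regions, had a median of 88.2% (84.8% to 90.2%), with quartiles at 66.5% and 97.1%. By pooled length, 5.39 of the 7.07 Mb, or 76.2%, carried H3K4me1. The share was under 50% in 70 regions (16.1%, interval 12.7% to 19.8%), between 50% and 90% in 165 (37.8%, 33.3% to 42.6%), and over 90% in 201 (46.1%, 41.3% to 50.9%). Among all autosomal H3K27ac regions, 28.3% had a share under 50% and 43.4% a share over 90%.

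Most of the difference from the list as a whole came with narrow regions, and regions of 4 to 10 kb had a distribution of shares close to that of broad ones. The median share was 88.2% in broad regions and 87.5% (86.7% to 88.2%) in the 5010 regions of 4 to 10 kb. Shares under 50% were found in 16.1% of broad regions and 13.1% of regions of 4 to 10 kb (12.1% to 14.0%), and shares over 90% in 46.1% and 45.3%. The intervals overlapped in each case. Regions under 1 kb stood apart, with a median of 62.5% and no H3K4me1 at all in 36.6%. Complete coverage fell from class to class above 1 to 2 kb, where it was 36.5%. In all, 62 broad regions (14.2%, 11.1% to 17.9%) lay wholly inside H3K4me1, against 23.6% (22.4% to 24.8%) of regions of 4 to 10 kb and 31.3% of those of 2 to 4 kb. A longer region has more room for an uncovered stretch, and the part of width in this difference was not tested.

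**Figure D1:**
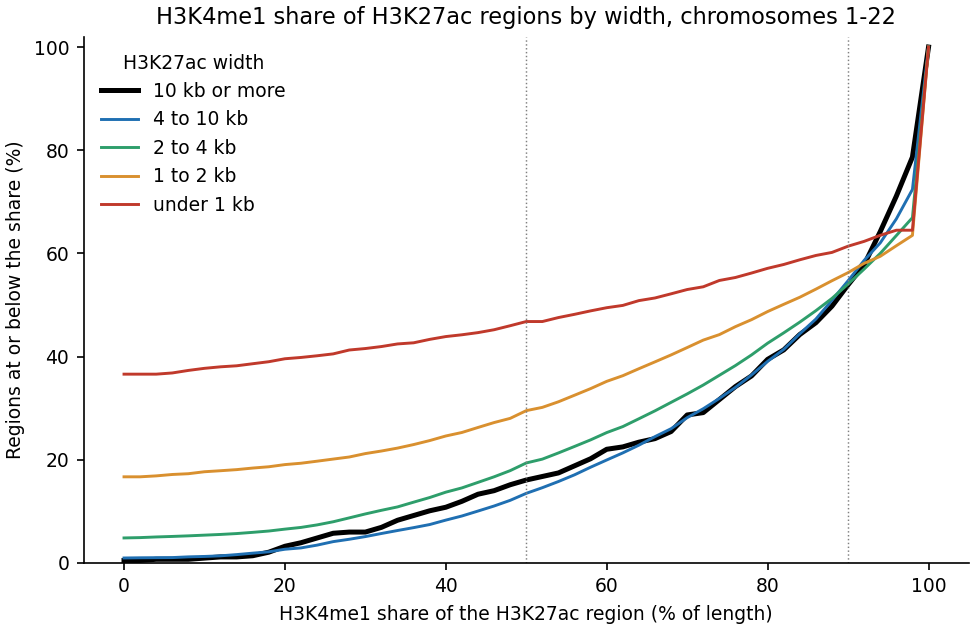
Cumulative percentage of H3K27ac regions on chromosomes 1 to 22 (vertical axis) at or below a given H3K4me1 share in percent of length (horizontal axis), 1 line per width class, with dotted lines at 50% and 90%. The line of broad regions runs close to that of regions of 4 to 10 kb, with 16.1% and 13.1% of regions under a share of 50%, while 36.6% of regions under 1 kb start at a share of 0.

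Within the broad regions the share was lower in the wider ones. Spearman's rho between width and share was -0.20 over the 436 regions, which share 1 library per mark, as a description. The median share was 90.2% in the 168 regions of 10 to 12 kb and 89.8% in the 117 regions of 12 to 15 kb. It was 77.8% (66.0% to 87.7%) in the 81 regions of 15 to 20 kb, 89.6% (78.1% to 94.7%) in the 43 of 20 to 30 kb, and 73.9% (56.3% to 89.1%) in the 27 of 30 kb or more. The order was thus not steady, and the intervals of the 3 widest groups overlapped.

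The 10 widest regions had shares from 24.8% to 95.5%. The widest, chr4:102072951-102194600, measured 122 kb and had H3K4me1 over 32.6% of it. The second, chr12:65000851-65093200 (92.3 kb), had 89.1%. The third, chr22:46430351-46512350 (82.0 kb), had 94.8%. Great width was therefore found with a low as well as a high share. chr15:89630151-89698050 (67.9 kb) had 95.5%, chr14:30339351-30398150 (58.8 kb) had 78.2% and chr21:17732351-17782400 (50.0 kb) had 56.3%. The next 3 were all under 50%: chr2:182754001-182803750 (49.8 kb) with 25.9%, chr12:81765801-81814000 (48.2 kb) with 24.8%, and chr11:49186001-49231550 (45.5 kb) with 48.7%. The tenth, chr8:26148101-26192300 (44.2 kb), had 66.1%.

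**Figure D2:**
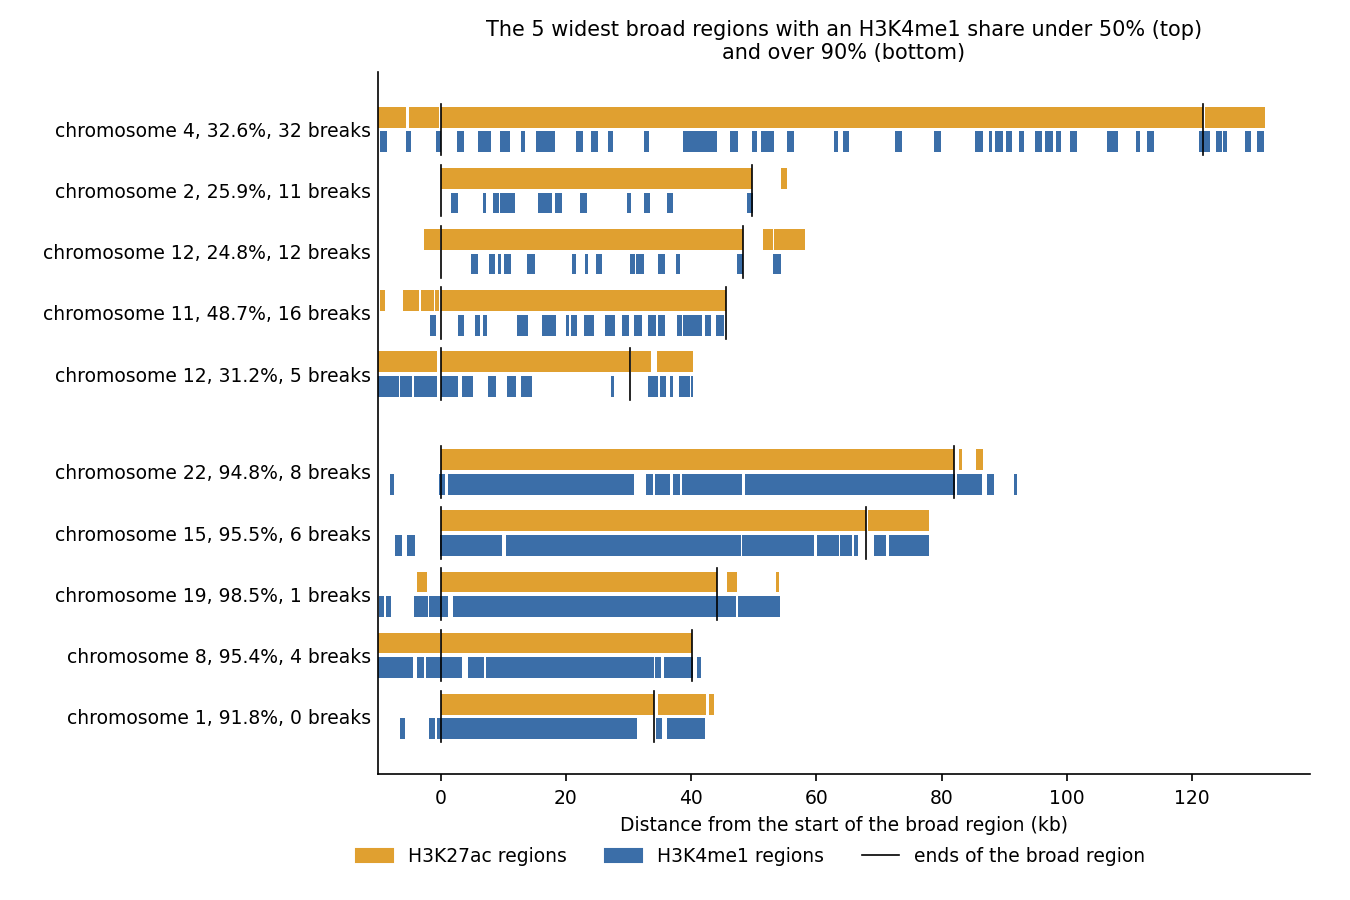
H3K27ac regions (orange) and H3K4me1 regions (blue) in and up to 10 kb around the 5 widest broad regions with a share under 50% (top) and over 90% (bottom), against distance in kb from the region's start, with black lines at both ends of the broad region. Between the black lines the longest H3K4me1 piece of a region is 1.25 to 3.55 kb in the upper group and 26.9 to 42.3 kb in the lower. The numbers of breaks overlap, with 5 to 32 in the upper group and 0 to 8 in the lower. Gaps narrower than a pixel do not show.

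A break was counted where H3K4me1 stopped and resumed inside a broad region, so that an uncovered stretch had H3K4me1 on both sides. Uncovered ends were counted apart. In all, 1176 breaks were found in 353 of the 436 regions (81.0%, interval 77.0% to 84.5%), with a median of 2 per region (quartiles 1 and 4). These values depend on short gaps between H3K4me1 regions. With gaps of up to 500 bp closed, 42.2% of broad regions had no break and the median was 1, and with gaps of up to 1 kb closed 59.2% had none and the median was 0, against 19.0% without a break as deposited. Of all autosomal H3K27ac regions 17.9% held a break, and of those of 4 to 10 kb 58.4% did. Per 10 kb of H3K27ac the breaks were of similar frequency in the 2 widest classes, with 1.66 in broad regions and 1.52 in regions of 4 to 10 kb, against 1.20 at 2 to 4 kb and 0.337 under 1 kb. A break needs 2 H3K4me1 regions that each overlap the H3K27ac region, if only in part. Of the 15035 H3K27ac regions under 1 kb, 371 held a break. The part of width in the order of these rates was not tested.

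Of the 83 broad regions without a break, 62 lay wholly inside H3K4me1, 19 held a single H3K4me1 piece with an uncovered end, and 2 held no H3K4me1. Between 1 and 4 breaks were found in 290 regions, 5 or more in 63 and 10 or more in 16. The number rose with width (Spearman's rho 0.42, as a description), and every region with 9 or more breaks was wider than 20 kb. A longer region has more room for breaks. Per 10 kb there were 1.57, 1.41, 1.71 and 1.45 breaks in regions of 10 to 12, 12 to 15, 15 to 20 and 20 to 30 kb. At 30 kb or more there were 2.23. The highest number, 32, was in the widest region, chr4:102072951-102194600. It was followed by 18 breaks in chr14:30339351-30398150. There were 16 breaks each in chr21:17732351-17782400, chr11:49186001-49231550 and chr21:17688251-17732100. A wide region did not need to be broken, since chr19:13105201-13149400 (44.2 kb) had 1 break of 650 bp and a single H3K4me1 piece of 42.3 kb, and chr1:154375651-154409750 (34.1 kb) had none.

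**Figure D3:**
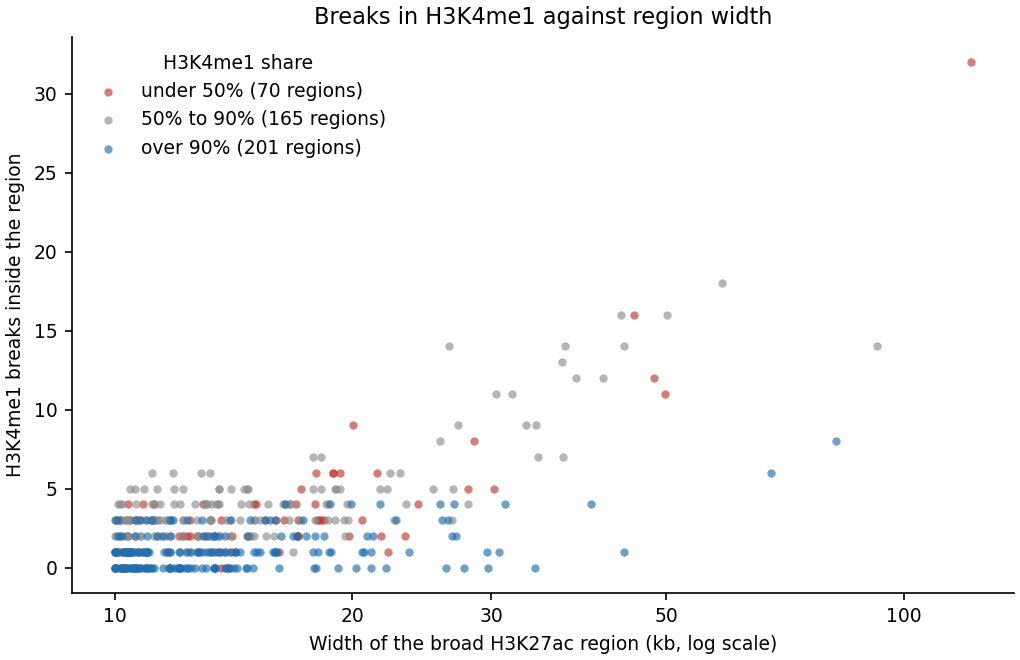
Number of H3K4me1 breaks (vertical axis) against width in kb on a log scale (horizontal axis), 1 point per broad region, coloured by the H3K4me1 share. Regions of a share over 90% stay at 8 breaks or fewer at every width, and the 32 breaks of the widest region stand above the next number, 18.

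Breaks were short for the most part. Their median length was 500 bp (quartiles 200 and 1200 bp). Of the 1176, 593 (50.4%) were 500 bp or shorter, and 142 (12.1%) were longer than 2 kb. These 142 nevertheless made up 48.0% of the summed break length. Breaks accounted for 70.4% of the 1683 kb of broad H3K27ac length without H3K4me1, and uncovered ends and wholly uncovered regions for the rest. The longest break, 12.6 kb, lay inside chr12:102099201-102129450, and the next, 11.8 kb, inside chr2:182754001-182803750. Breaks of 10.9, 9.80 and 9.50 kb followed in chr2:189153651-189175850, chr4:102033551-102051950 and chr5:107643601-107659750. All 5 of these regions had a share under 50%.

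The 3 share classes differed in how H3K4me1 was interrupted. A low share requires more uncovered length, so the lengths below are in part a restatement of the classes, whereas the number of breaks is fixed by them, at 0, in the 62 wholly covered regions and the 2 without H3K4me1. The median number of breaks was 3 in regions under 50%, 3 in regions of 50% to 90%, and 1 in regions over 90%. Pooled over length, there were 2.02, 2.50 and 0.739 breaks per 10 kb. Regions of 4 to 10 kb had the same order, with 1.41, 2.44 and 0.702, so it was not peculiar to broad regions. Broad regions with the least H3K4me1 thus had no more breaks than the middle class, and theirs were longer. The median break was 1450 bp (1250 to 1700 bp, 261 breaks) under 50%, 500 bp (450 to 600 bp, 692 breaks) at 50% to 90%, and 250 bp (250 to 300 bp, 223 breaks) over 90%. A break of 5 kb or more was found in 24 of the 70 regions under 50%, in 1 of 165 in the middle class and in 0 of 201 over 90%. A share over 90% leaves room for such a break only in the widest regions.

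The H3K4me1 pieces showed the reverse order. Under 50%, the 329 pieces had a median of 1050 bp (quartiles 800 and 1400 bp), the same as the median of 1050 bp over all 197700 autosomal H3K4me1 regions. At 50% to 90% the 857 pieces had a median of 1700 bp, and over 90% the 424 pieces had a median of 5350 bp. The longest piece filled more than 50% of the region in 0 of 70, 26 of 165 and 173 of 201 regions. The 0 of 70 is fixed by the class, since a share under 50% leaves no room for such a piece. Piece lengths are thus, like break lengths, in part a restatement of the classes. Pieces were cut at the ends of the H3K27ac region, which shortens those that run over. The H3K4me1 regions themselves differed in score too. A score of at most 0.003 was seen in 29.8% of pieces under 50%, in 62.9% in the middle class and in 88.0% over 90%, against 27.9% of all autosomal H3K4me1 regions. H3K4me1 regions of such scores had a median width of 2250 bp and the others one of 900 bp, so the scores are not separate from the lengths.

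At the lower end, 2 broad regions contained no H3K4me1 at all, chr3:186499351-186509600 (10.2 kb) and chr14:37989101-37999800 (10.7 kb). That is 0.459% of the broad regions (interval 0.0556% to 1.65%), where 0.938% of regions of 4 to 10 kb and 16.4% of all autosomal regions lacked it. H3K4me1 still covered 16.9% and 7.38% of the 20 kb on either side of them. Among regions of 15 kb or more, the lowest share was 10.5% in chr5:107643601-107659750. It was followed by 17.8% in chr1:84620851-84645050, 17.9% in chr15:20861801-20878850, 18.8% in chr13:50644701-50661750 and 18.9% in chr4:95677401-95699150. Shares of 18.9%, 19.0%, 21.2%, 22.6% and 23.2% were found in chr12:81978851-81998650, chr21:17862401-17880550, chr12:81904301-81927650, chr5:107610851-107627850 and chr2:189153651-189175850. Of these 10 regions, 6 lay within 10 kb of another broad region.

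At the upper end, 9 regions of 15 kb or more lay wholly inside H3K4me1. The widest was chr10:42373501-42401250 (27.8 kb), followed by chr9:137245901-137272200 (26.3 kb), chr14:100025951-100048050 (22.1 kb), chr9:130725001-130746150 (21.1 kb) and chr9:132240551-132260750 (20.2 kb). The others were chr17:17711451-17730650, chr1:155095501-155113500, chr1:33216451-33234350 and chr12:6332951-6349100, of 19.2, 18.0, 17.9 and 16.1 kb. The tenth in this order, chr1:37925651-37955400 (29.8 kb), was covered over 99.7%. The first of them stood beside a region-free stretch. Stretches of 1 Mb or more without a region of either list numbered 26 on these chromosomes, and 6 broad regions lay within 1 Mb of one. These were chr10:42354651-42366750, chr10:42373501-42401250, chr16:46385251-46397300, chr16:46398201-46410100, chr18:18510651-18520900 and chr21:10708751-10728250, with shares of 99.2%, 100%, 99.6%, 100%, 100% and 82.1%. In hg19 the positions on chromosomes 10, 16 and 18 adjoin centromeric gaps, where repeated sequence makes the mapping of short reads uncertain. Whether these regions come from mis-mapped reads was not tested, and the same holds for chr10:42373501-42401250 as the widest wholly covered region. Without the 6, 45.6% of broad regions had a share over 90%.

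H3K4me1 around the broad regions differed in the same order as H3K4me1 inside them. In the 20 kb on either side, it covered a median of 16.9% (12.4% to 20.4%) for regions under 50%, 32.1% (28.2% to 35.8%) for the middle class and 49.8% (47.0% to 53.4%) for regions over 90%. In the 500 kb on either side the medians were 10.7% (9.01% to 12.8%), 18.4% (17.3% to 19.1%) and 25.2% (24.2% to 26.7%). The intervals of the classes did not overlap at either distance, but they treat neighbouring regions, whose flanks overlap, as independent. An H3K4me1 region that ran over an edge counted both inside and outside. This held for 32 of 70, 117 of 165 and 195 of 201 regions, so the order near the edges is in part built in. Regions of 4 to 10 kb had the same order, with 10.4%, 15.9% and 21.9% over 500 kb. The order was therefore not peculiar to broad regions. H3K27ac in the 20 kb flanks did not follow it, with medians of 37.4%, 27.5% and 29.4%.

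Across the regions, H3K4me1 fell towards both edges in the middle and upper classes and was low throughout in the lower one. With each region divided into 20 equal parts, coverage in the 2 outermost parts was 27.2% under 50%, 59.0% in the middle class and 91.4% over 90%. In the 2 central parts it was 27.5%, 78.7% and 97.7%. In the first kb outside it was 17.4%, 40.5% and 69.5%. Both edges lay in H3K4me1 in 8 of 70, 49 of 165 and 148 of 201 regions. H3K4me1 thus ran over the edges of most highly covered regions, while most low-share regions had at least 1 bare end.

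**Figure D4:**
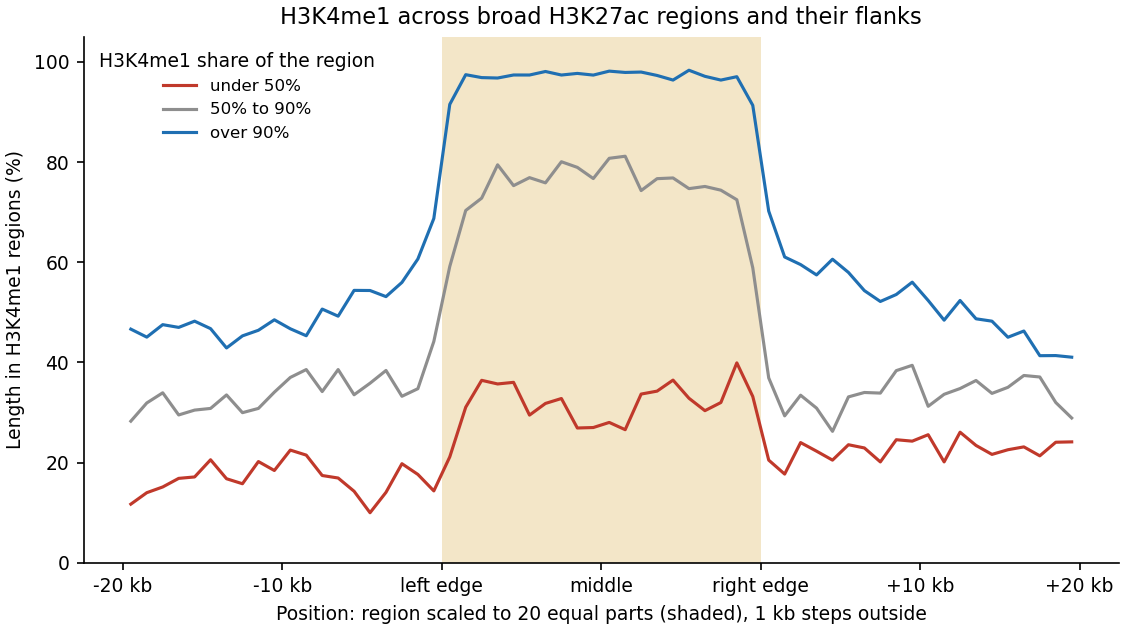
Percentage of length in H3K4me1 regions (vertical axis) across broad H3K27ac regions scaled to 20 equal parts (shaded) and in steps of 1 kb up to 20 kb outside, 1 line per share class. The 3 lines keep their order inside, where the classes themselves set it, with 27.5%, 78.7% and 97.7% in the centre. They keep it outside too, with 17.4%, 40.5% and 69.5% in the first kb.

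Broad regions stood in groups as well as alone. The distance from edge to edge to the nearest other broad region had a median of 317 kb (186 to 598 kb) and quartiles of 14.9 and 2908 kb. Another broad region lay within 1 kb of 38 members (8.72%), within 10 kb of 91 (20.9%) and within 100 kb of 182 (41.7%, interval 37.1% to 46.5%). By contrast, 67 members (15.4%) had none within 5 Mb. The most distant were chr9:33156401-33168050, chr4:185711301-185732550 and chr7:139468601-139479200, with shares of 91.8%, 95.5% and 94.8%. An H3K27ac region of any width was nearly always close: the nearest lay a median of 850 bp (700 to 1050 bp) from a broad region, 2700 bp from a region of 4 to 10 kb and 5800 bp from any autosomal H3K27ac region.

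Some neighbours were separated by no more than a few steps of the grid. The closest pair was chr21:17672701-17688200 and chr21:17688251-17732100, 50 bp apart. Gaps of 100 bp separated a pair at chr11:34640751-34667500 and chr11:34667601-34677950 and another at chr14:30328901-30339250 and chr14:30339351-30398150. Gaps of 150 bp were found in 3 pairs, of which chr1:36695051-36708950 and chr1:36709101-36740300 came first in order, followed by chr12:81950701-81978700 with chr12:81978851-81998650. The third was chr8:134533551-134548550 with chr8:134548701-134588900. The number of broad regions therefore depends on how the authors' caller split such stretches. When H3K27ac regions within 1 kb were merged first, 776 regions reached 10 kb.

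Low-share regions were the most grouped. Another broad region lay within 100 kb of 43 of the 70 regions under 50% (61.4%), of 65 of 165 in the middle class (39.4%) and of 74 of 201 over 90% (36.8%). Of the 70, 23 lay in long groups on chromosomes 21, 4, 12 and 5, with 9, 5, 5 and 4 of them. These members are not independent. The median distance to the nearest broad region was 20.1, 408 and 589 kb in these classes. The intervals were 13950 to 157300, 154300 to 1164250 and 207400 to 868150 bp, so that of the lowest class overlapped that of the middle class. Close neighbours were more often of the same share class than distant ones. Over all 414 adjacent pairs, 222 (53.6%) were of the same class. Among the 117 adjacent pairs at most 100 kb apart, 74 (63.2%) were of the same class and 2 joined a region under 50% with one over 90%. Many of these pairs share members in the same few groups and are not independent. Among the 235 adjacent pairs more than 1 Mb apart, 110 (46.8%) were of the same class and 19 joined the extremes.

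Joining broad regions at most 100 kb apart gave 319 runs, of which 254 were single regions and 65 held 182 regions. Shares were under 50% in 10.6% of the single regions and over 90% in 50.0%. In 7 of the 65 longer runs every member was under 50%, in 19 every member was over 90%, and only 2 held both extremes. When each run was counted once by its widest member, 12.2% had a share under 50%, just below the interval of the value over all members. The 70 regions under 50% lay in 45 runs, and the 201 over 90% in 167.

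The run with most members lay at chr21:17448601-17963450, where 14 broad regions covered 289 kb. Their shares were all low to moderate, the lowest being 14.0%, in chr21:17487251-17500800, and the highest 59.4%, in chr21:17900101-17912300. The share was under 50% in 9 of the 14 and over 90% in 0. The run held 80 breaks, and the members of 50.0 and 43.9 kb held 16 each. Of the 6 other broad regions of chromosome 21, 4 were also under 50%.

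The next run, chr4:102033551-102272500, held 6 broad regions with shares of 35.1%, 55.3%, 32.6%, 47.1%, 42.6% and 45.4% along the chromosome. All but the second were under 50%. At chr12:81765801-81998650, 5 regions had 24.8%, 21.2%, 24.3%, 32.9% and 18.9%, so that the whole run was low in H3K4me1. At chr5:107590751-107659750, 4 regions had 31.2%, 22.6%, 3.30% and 10.5%. This was the lowest run of 4 or more, with H3K4me1 over 17.1% of its broad length.

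Runs of high share were found too. At chr8:134461251-134588900, 5 broad regions had 100%, 93.7%, 98.5%, 87.7% and 95.4%. At chr8:128744301-128968900, 4 of 5 broad regions were over 90% and the lowest had 79.7%. At chr3:57993301-58138850, all 4 were over 90%, at 99.4%, 95.6%, 95.7% and 100%. A run of intermediate shares lay at chr14:30201051-30398150, where 5 regions had 63.2%, 63.7%, 57.5%, 83.6% and 78.2% and held 49 breaks in all. Together the 11 runs of 4 or more members held 60 broad regions, of which 23 were under 50% and 15 over 90%.

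Broad regions were found on every autosome, in numbers from 5 to 45. Chromosome 1 had most (45), followed by chromosome 5 (39), chromosome 11 (29) and chromosomes 3 and 4 (28 each). These 5 held 38.8% of broad regions and 36.3% of all autosomal H3K27ac regions, but single chromosomes differed more. Chromosomes 11, 5 and 4 held 6.65%, 8.94% and 6.42% of broad regions, against 4.95%, 7.37% and 5.30% of all. Chromosomes 1 and 3 went the other way, with 10.3% and 6.42% of broad regions against 11.4% and 7.29% of all. Chromosome 2 held 8.22% of all regions and 4.59% of broad ones. The fewest were on chromosomes 20 and 22 (5 each), 13 (6), 18 (8) and 7 (13), together 8.49% of broad regions and 12.4% of all. Across the 22 chromosomes the number of broad regions rose with that of all H3K27ac regions (Spearman's rho 0.67, as a description, since chromosomes are not replicates).

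Relative to the number of H3K27ac regions, chromosome 21 stood apart. It had 19.0 broad regions per 1000 H3K27ac regions and chromosome 19 had 11.5, against 6.30 over all autosomes and 3.11 on chromosome 20. Broad regions held 15.9% of the H3K27ac length on chromosome 21, compared with 5.05% on all autosomes. Of its 20 broad regions, 14 belonged to the run at chr21:17448601-17963450, and 6 remain without it. In windows of 1 Mb, 294 of the 2689 that held an H3K27ac region contained the midpoint of a broad region, and 29 contained 3 or more. The fullest, with 14, was that of the same run.

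**Figure D5:**
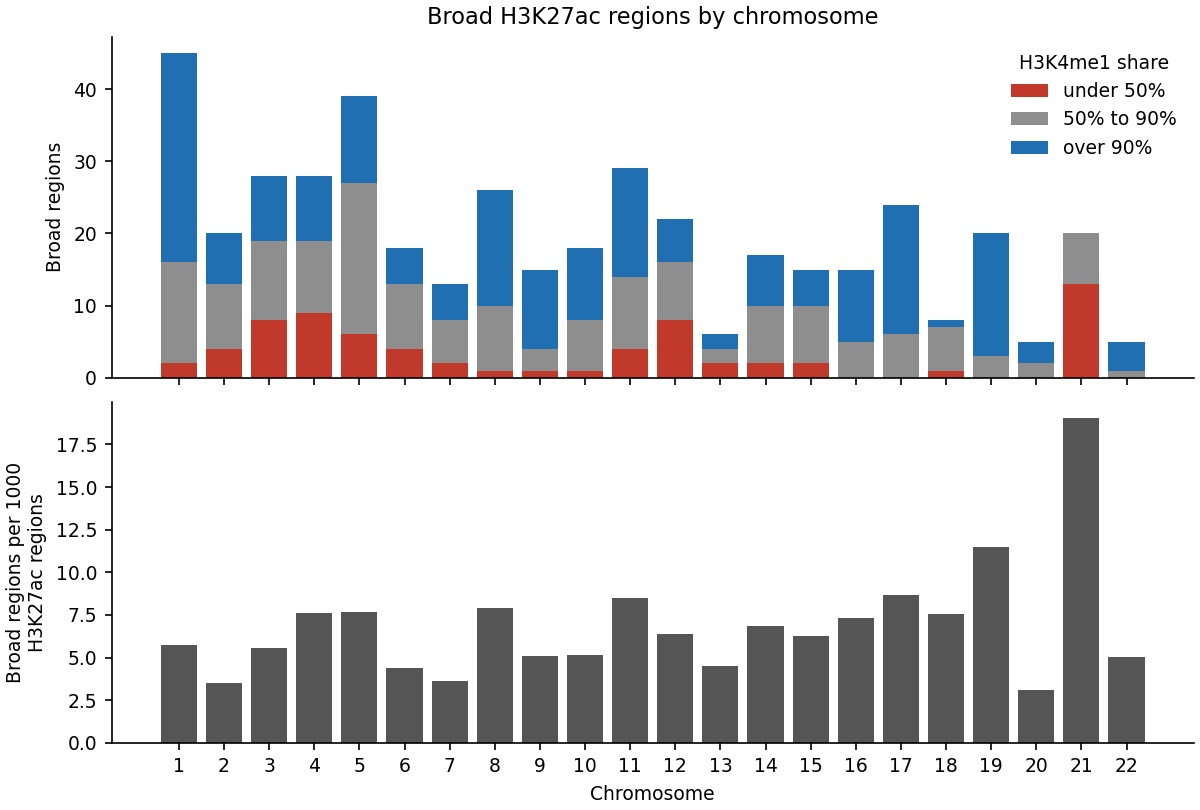
Upper panel, number of broad H3K27ac regions on each autosome, stacked by H3K4me1 share. Lower panel, broad regions per 1000 H3K27ac regions of the chromosome. Chromosome 21 has the highest rate, 19.0, with 13 of its 20 broad regions under 50% and 0 over 90%, whereas 17 of the 20 on chromosome 19 are over 90%.

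The share classes were spread unevenly over the chromosomes. On chromosome 21, 13 of 20 broad regions were under 50% and 0 were over 90%, with a median share of 44.3%. Chromosome 4 had 9 of 28 under 50%, chromosome 12 had 8 of 22 and chromosome 3 had 8 of 28. H3K4me1 covered 62.5%, 62.0% and 68.6% of the broad H3K27ac length on these chromosomes. Of all their H3K27ac length it covered 58.1%, 70.2% and 68.1%, so broad regions were lower only on chromosome 12. In contrast, 0 of the 69 broad regions of chromosomes 16, 17, 19, 20 and 22 were under 50%. All H3K27ac on these chromosomes was covered over 82.7% to 86.6% of its length. Shares over 90% were held by 17 of 20 on chromosome 19, 18 of 24 on chromosome 17, 11 of 15 on chromosome 9 and 29 of 45 on chromosome 1. On chromosomes 17, 9 and 1, H3K4me1 covered 94.0%, 89.7% and 87.1% of broad H3K27ac length. Of all H3K27ac length there it covered 84.7%, 74.4% and 77.7%. By pooled length, H3K4me1 covered 47.3% of broad H3K27ac on chromosome 21 and 94.3% on chromosome 19, against 65.9% and 86.6% of all H3K27ac on these chromosomes. Across the 22 chromosomes the pooled share of broad regions rose with the H3K4me1 length per Mb (Spearman's rho 0.65, as a description, with H3K4me1 in both quantities).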

How the data were processed

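ChIP-seq regions of 2 marks in LNCaP were analysed, with 1 library each. Per the labels' protocols, crosslinked chromatin was sonicated to fragments mostly of 200 to 600 bp and sequenced as single reads of 50 bp. The submitters' processing notes name Bowtie 0.12.8 and hg19. How regions were called, at which threshold and whether against the input is not given in the sources used here. Caller and threshold set where regions split, and so the number of broad regions and of breaks. The deposited lists give a start, an end and an unnamed score per region, which served only to rank or filter regions.

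Members and settings were chosen with earlier results of these data known. Starts were read as 0-based. An H3K4me1 region counted from 1 bp of overlap. No test was run, as there are no replicates. Regions were named by rank of width, share, breaks, gap or distance. The interval functions were tested on 5 simulated lists of 40 regions, with 0 mismatches. Computation used Python 3.11.15 with scipy 1.17.1, pandas 2.3.3 and numpy 2.4.6, and figures matplotlib 3.10.9.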

Additional observations from a re-analysis of the deposited data

How the results depend on the processing

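Of 97 alternative values for 9 results, 74 stayed within the 95% interval of the main value (counts within 1.5-fold) and 23 moved. The number of broad regions was 813 with a minimum of 8 kb, 151 with 15 kb and 776 with H3K27ac regions within 1 kb merged. At 8 kb the median number of breaks was 1. At 15 kb the median share was 79.0%, 23.8% of regions were under 50% and 37.1% over 90%, the median number of breaks was 3, 7.28% had none, and the median distance was 647 kb. After merging H3K27ac within 1 kb, 15.2% had no break. With H3K4me1 regions within 500 bp merged, the median share was 90.4%, 50.9% were over 90%, the median number of breaks was 1 and 42.2% had none; within 1 kb these were 95.2%, 56.0%, 0 and 59.2%. With H3K4me1 scores up to the list median the median number of breaks was 1 and 25.9% had none. At 50 kb, 36.9% had a broad neighbour. Counting the widest member of each run, a setting added after seeing the data, 12.2% were under 50%. The share of regions under 50% left its interval only at 15 kb and with 1 member per run. No member scored above the H3K27ac list median of 0.009, so that filter removed none. Its values for the 9 results are counted among the 74 but could not move. No value could reverse, as none has a sign. No paired analysis was possible because neither mark was replicated. Depth is unknown, so a break is a stretch without a called region, not one shown to lack the mark.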
